A study of Mus musculus with 62 samples.

Results

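Livers of mice that had a sleeve gastrectomy (SG) were compared with livers of sham-operated mice, both fed a diet in which 21% of calories came from protein (P21). The comparison used every library of those groups that has a column of counts: 6 SG and 7 sham libraries, 13 of the 57 libraries in the series. Sleeve gastrectomy is a weight-loss operation, and here it took out about 75% of the stomach, while the sham operation opened the abdomen and handled the stomach without removing any of it. The mice of both groups were male C57BL/6J, an inbred strain, and all had eaten a Western diet (WD), which draws 42% of its calories from fat, for 12 weeks from the age of 5 weeks. They were operated on at 17 weeks of age, and P21, with 20% of its calories from fat, was started on day 7 after the operation. Tissue was collected 14 weeks after the operation from mice fasted for 16 h and then refed for 4 h, so the values describe a fed liver long after the operation. The study asked how the protein eaten after surgery bears on metabolism, and the same pair of operations was also studied on 36% protein (P36), 7% protein (P7) and WD. One more SG liver on P21 is labelled and was not analysed here.

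The liver burns and makes fat, breaks down amino acids and secretes most plasma proteins. In inflammation, interleukin 6 and interleukin 1 reach the hepatocyte and act through STAT3, C/EBP and NF-kappaB factors, which raise a set of secreted acute phase proteins. Neutrophils, short-lived white cells that carry preformed granule proteins, are scarce in a resting liver and are drawn in by chemokines such as CXCL1. Kupffer cells are the macrophages that live in the liver, and monocytes from blood add to them after injury.

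Libraries held 6.99 to 26.31 M counts in SG mice and 14.03 to 29.69 M in sham mice, and SG library 4 had the fewest. SG libraries carry the numbers 1, 2, 3, 4, 5 and 7 and sham libraries 1 to 7, in the order of the labels. Each was taken as 1 mouse, and although the mice were housed in pairs the labels do not say which of them shared a cage. Hepatocyte markers such as albumin summed to 92220 to 138400 CPM (counts per 1000000 counts of the library) in SG livers and 100400 to 118700 CPM in sham livers. In a principal component analysis of the 13 libraries SG 3 and SG 5 stood apart on the first component, sham 1 and sham 2 on the second and SG 4 on the third. Many of the results below are therefore also given without SG 3 and SG 5, or without sham 1 and sham 2. A result printed without such values may still depend on these libraries. How many named genes lost their call in each of these fits is given near the end.

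Of 16087 genes tested, 1370 (8.52%) differed between SG and sham livers on P21 at an adjusted p under 0.05 in edgeR's quasi-likelihood test, and are named below as called. Of these, 622 (3.87%) were higher in SG livers and 748 (4.65%) were lower. Neutrophil markers had the largest median rise of the 52 gene lists examined, and SG 3 and SG 5 held most of their highest values. The falls were smaller. The median log2 fold change was 0.85 among called genes that rose and -0.52 among those that fell, against 0.03 over all genes. A change of at least 1 on the log2 scale was seen in 254 of the genes that rose and in 42 of those that fell. The 6 SG values lay wholly above the 7 sham values in 194 of the 622 genes that rose, and wholly below them in 350 of the 748 that fell. Over all genes tested, called or not, such a separation was found with SG above in 285 (1.77%) and with SG below in 459 (2.85%). Without SG 3 and SG 5 the calls were 149 higher and 668 lower, of which 141 and 554 were among those of the full comparison. Single libraries also moved the counts. The rises numbered 411 without SG 1, 247 without SG 3, 269 without SG 5 and 365, 318, 287 and 256 without sham 3, 4, 5 and 6 in turn. In all of these fits but that without SG 1 the median over all genes moved as well, from 0.03 to between -0.05 and -0.04. Whether the fewer rises in those fits came from this shift or from the values of the library left out was not tested. The falls numbered 480 to 1073 when each library was left out, and were fewest without SG 7 (480) and SG 4 (502).

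**Figure D1:**
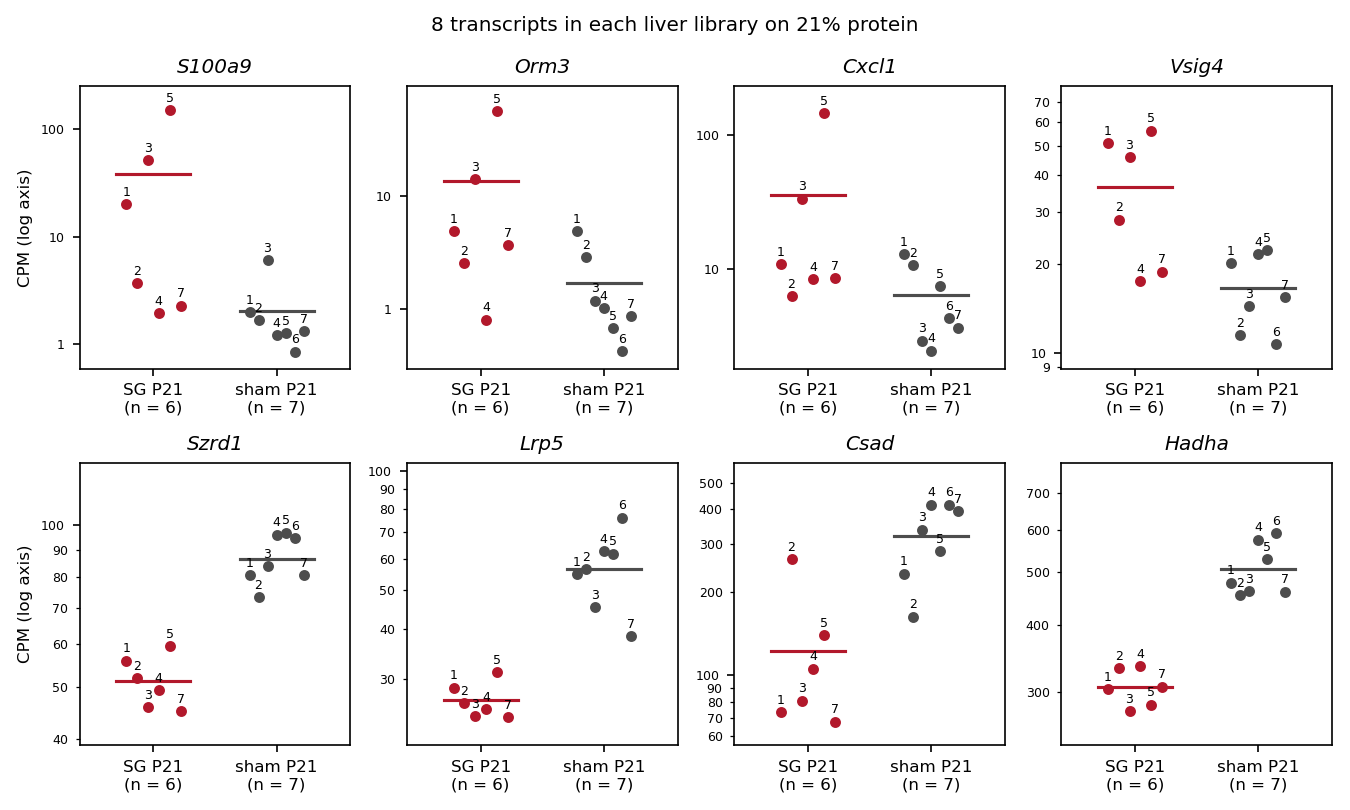
Level of 8 transcripts in each of the 13 libraries on P21, in CPM on log axes that differ between panels, with SG libraries in red on the left, sham libraries in grey on the right, replicate numbers above the points and group means as lines. For S100a9, Orm3 and Cxcl1 the highest points are SG 5 and SG 3, while for Szrd1, Lrp5 and Hadha all 6 SG points lie below all 7 sham points.

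Neutrophil transcripts rose. Of 12 neutrophil markers tested 11 rose and none fell, with a median log2 fold change of 3.82 over the 12. Only 6 of the 12 (S100a8, S100a9, Ltf, Csf3r, Il1b and Mmp9) pass the filter on low counts when the P21 libraries are taken alone, and all 6 were called in that fit (median 2.97). The other 6 were tested because the filter spans all groups, so the count and median of the 12 rest in part on genes with few counts in most sham livers. S100a9, a subunit of the calcium-binding protein calprotectin that fills the neutrophil cytosol, had 1.94, 11.8 and 148 CPM (lowest, median and highest) in SG livers, against 0.856, 1.33 and 6 CPM in sham livers. SG 5, SG 3 and SG 1 stood above every sham library, and the other 3 SG libraries lay within the sham range. Its log2 fold change was 4.21 ± 1.02 (SE; adjusted p = 0.00783).

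Its partner S100a8 had 0.81, 5.03 and 66.8 CPM in SG livers, against 0.263, 0.664 and 3.62 CPM in sham livers (4.02 ± 1.05, adjusted p = 0.0135). Granule proteins were also called. Ngp, a granule protein of neutrophil precursors, had 0.162, 1.83 and 112 CPM in SG livers and 0, 0.06 and 1.66 CPM in sham livers (6.21 ± 1.62, adjusted p = 0.0129). Lactoferrin, Ltf, an iron-binding granule protein, had 0, 3.27 and 65.2 CPM in SG livers and 0, 0 and 1.57 CPM in sham livers (5.52 ± 1.41, adjusted p = 0.0114). SG 5 was the highest library and SG 3 the next for all of these, and sham 3 was the highest sham library.

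Surface receptors of the neutrophil moved less. Csf3r, the receptor of the growth factor that keeps neutrophils alive, had 3.85, 9.88 and 19 CPM in SG livers, against 1.22, 2.96 and 3.96 CPM in sham livers (1.90 ± 0.46, adjusted p = 0.00833). Cxcr2, the receptor through which neutrophils follow CXCL1, had 0, 1.31 and 5.44 CPM in SG livers and 0.0987, 0.24 and 0.409 CPM in sham livers (3.02 ± 0.75, adjusted p = 0.00969). Retnlg, Mmp8, Ly6g, Camp and Il1b were called as well, at 3.61, 3.56, 5.17, 4.73 and 1.70 on the log2 scale, Ly6g at under 2 CPM in every library. Ltf had a count of 0 in 4 of the 7 sham libraries and Ly6g and Camp in 6 of them, so the fold changes of these 3 depend on the prior count. The gelatinase Mmp9, at 1.80 ± 0.65, was the member that missed the threshold (adjusted p = 0.0698).

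Summed over the 12 markers, the neutrophil level was 9.449, 41.49 and 468.6 CPM in SG livers (lowest, median and highest), against 4.211, 8.004 and 19.37 CPM in sham livers. SG 5 had the 468.6 CPM, SG 3 had 142 CPM and SG 1 had 64.37 CPM. SG 2 had 18.61, SG 4 had 11.34 and SG 7 had 9.449 CPM, all 3 within the sham range. In the libraries SG 3 and SG 5 each of the 12 markers stood above all 7 sham libraries. Without SG 5 alone 3 of the 12 were called (median 2.45), and leaving out SG 3 as well none was, with a median of 1.49. In limma-voom, a test on log counts, 1 of the 12 was called with all libraries in (median 2.36). In bulk tissue more neutrophils and more RNA per neutrophil cannot be told apart.

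**Figure D2:**
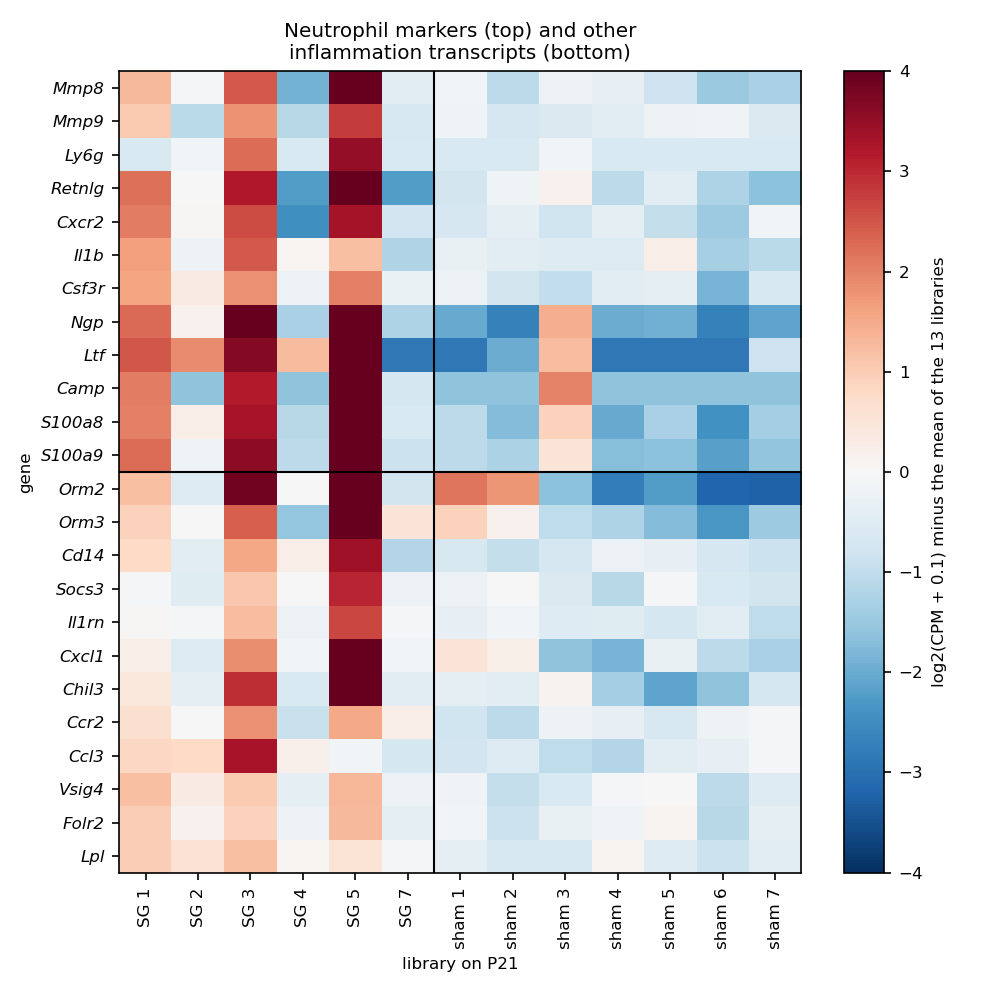
Level of each neutrophil marker (top block) and of 12 other inflammation transcripts (bottom block) in the 13 libraries on P21, as log2(CPM + 0.1) less the mean of the 13 libraries, with SG libraries left of the vertical line and sham libraries right of it. SG 5 and SG 3 are the darkest red columns, SG 1 is red over the neutrophil block with Ly6g as the exception, and sham 1 and sham 2 are red for Orm2.

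The acute phase list followed in part. Of 29 acute phase genes 5 rose and none fell, and the median log2 fold change was 0.54. The share called was 17.2%, against 8.52% of all genes. Orm3, an orosomucoid (alpha-1-acid glycoprotein), had 0.81, 4.27 and 55.5 CPM in SG livers, against 0.428, 1.02 and 4.86 CPM in sham livers (3.10 ± 0.68, adjusted p = 0.00433). Its paralog Orm2 had 37.8, 104 and 2569 CPM in SG livers and 6.59, 13.2 and 277 CPM in sham livers (3.02 ± 0.98, adjusted p = 0.0427). SG 5 and SG 3 lay above every sham library for both, and for Orm2 sham 1 lay above the other 4 SG libraries. The Orm2 call was lost in 9 of the 21 alternative fits, besides that without SG 3 and SG 5, where its sign turned (-0.16). Reads that match both paralogs are shared out by the counting method, so the split between them is uncertain.

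The other called members were signalling proteins. Socs3, which switches off STAT3 signalling after it has been induced by it, had 5.88, 8.16 and 68.9 CPM in SG livers, against 3.75, 5.53 and 8.16 CPM in sham livers (1.69 ± 0.45, adjusted p = 0.0142). Cd14, the co-receptor for bacterial lipopolysaccharide, had 0.962, 3.39 and 25.1 CPM in SG livers and 1.12, 1.41 and 1.91 CPM in sham livers (2.25 ± 0.69, adjusted p = 0.0331). Il1rn, which blocks the interleukin 1 receptor, had 2.27, 2.71 and 18 CPM in SG livers and 1.28, 1.91 and 2.48 CPM in sham livers (1.64 ± 0.53, adjusted p = 0.0412). For all 3, SG 5 and SG 3 lay above every sham library, and SG 5 was the highest. Of the 21 alternative fits the Il1rn call was lost in 14, the Cd14 call in 10 and the Socs3 call in 3.

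Other secreted members did not pass. Serum amyloid Saa1, picked out after its values were seen, had 11.7, 244 and 7709 CPM in SG livers and 17.2, 22.5 and 2801 CPM in sham livers (1.02 ± 1.13, adjusted p = 0.622). Lcn2, or lipocalin 2, which binds bacterial iron carriers and was chosen in the same way, had 9.72, 27.8 and 1945 CPM in SG livers and 3.76, 5.91 and 288 CPM in sham livers (2.48 ± 1.14, adjusted p = 0.163). In sham livers the highest values of both came from sham 2, at 2801 CPM of Saa1 and 288 CPM of Lcn2. The summed level of the 29 genes was 84100 CPM in SG 5 and 43390 CPM in SG 3, against 58330 CPM in sham 2 and 55170 CPM in sham 1. The other 4 SG libraries had 18610 to 24260 CPM, and the other 5 sham libraries 17620 to 21460 CPM. Without SG 5 alone none of the 29 rose and 1 fell (median -0.27), and leaving out SG 3 alone, or any of sham 3 to 7, left 2 or 3 calls, all higher. Without SG 3 and SG 5 none of the 29 was called and the median was -0.42, and without sham 1 and sham 2 there were 8 called, all higher, with a median of 1.11.

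Outside the lists, Cxcl1 was among the 10 largest rises. It had 6.3, 9.75 and 147 CPM in SG livers, against 2.48, 4.34 and 13 CPM in sham livers (2.51 ± 0.61, adjusted p = 0.00839). SG 5 and SG 3 stood above all sham libraries, and the other 4 SG libraries lay within the sham range. Alpk1, a kinase that senses a bacterial sugar, had 3.38, 6.88 and 41.2 CPM in SG livers and 1.28, 2 and 5.7 CPM in sham livers (2.35 ± 0.59, adjusted p = 0.0105). Scara5, a scavenger receptor that takes up ferritin, rose by 2.50 ± 0.81 (adjusted p = 0.0422), the calcium-binding protein Cib3 by 2.51 ± 0.62 (adjusted p = 0.00966) and Armcx4 by 1.72 ± 0.46 (adjusted p = 0.0153). SG 5 held the highest value of all of these but Cib3, whose highest was SG 3. When SG 3 and SG 5 were left out none of Cxcl1, Alpk1, Scara5, Cib3 and Armcx4 was called, with log2 fold changes of 0.37, 0.91, 0.03, 1.05 and 0.52.

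Promoter sequences of Cxcl1, Socs3 and Orm3 are printed because these stand for the chemokine, the feedback and the plasma protein side of the rise, and the factors named above bind short motifs of known form. Each runs from 250 bases before to 50 bases after the annotated start, 5′ to 3′ on the strand of the gene, from RefSeq on GRCm38.p6, and capitals mark the motif matches found.
Cxcl1, chr5:90890995-90891294, plus strand: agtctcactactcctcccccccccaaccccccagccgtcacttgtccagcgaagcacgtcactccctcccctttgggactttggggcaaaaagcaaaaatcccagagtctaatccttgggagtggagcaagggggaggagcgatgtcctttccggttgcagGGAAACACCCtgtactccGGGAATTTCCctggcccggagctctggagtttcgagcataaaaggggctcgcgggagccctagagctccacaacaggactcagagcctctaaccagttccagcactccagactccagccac
Socs3, chr11:117969317-117969616, minus strand: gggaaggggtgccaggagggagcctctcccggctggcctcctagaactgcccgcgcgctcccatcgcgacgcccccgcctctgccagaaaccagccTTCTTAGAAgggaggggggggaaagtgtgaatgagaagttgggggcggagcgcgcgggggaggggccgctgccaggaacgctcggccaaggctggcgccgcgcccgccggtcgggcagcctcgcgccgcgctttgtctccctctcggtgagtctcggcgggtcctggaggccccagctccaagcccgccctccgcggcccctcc
Orm3, chr4:63355908-63356207, plus strand: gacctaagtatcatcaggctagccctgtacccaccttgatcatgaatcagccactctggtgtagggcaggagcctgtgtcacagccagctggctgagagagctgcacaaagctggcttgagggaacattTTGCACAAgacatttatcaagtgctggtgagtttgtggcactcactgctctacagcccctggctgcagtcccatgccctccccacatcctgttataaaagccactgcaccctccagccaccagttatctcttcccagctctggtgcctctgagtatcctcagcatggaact
The Cxcl1 window held 2 matches to the kappaB motif GGGNNTTTCC, which 1.63% of 32851 promoters of this length hold at least once on either strand. The Socs3 window held 1 match to the STAT motif TTCNNNGAA, found in 8.3% of promoters. The Orm3 window held 1 match to the C/EBP motif TTGCNNAA, found in 10.8%, and so did those of Orm2 and S100a9. None of these 5 windows held a match to either of the other motifs, and the windows of S100a8, Il1rn, Csf3r and Il1b, searched as well, held no match to any of the 3. For Il1rn only 1 of its 3 annotated promoters was searched. A match describes the letters and is no evidence that a factor was bound in these livers.

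Macrophage markers changed less. Of 14 Kupffer cell markers 2 rose and none fell (median log2 fold change 0.71), and 13 of the 14 were positive. The share called was 14.3%, against 8.52% of all genes, and 8644 of all 16087 genes were positive. Vsig4, a complement receptor of Kupffer cells, had 17.5, 37 and 56.3 CPM in SG livers, against 10.7, 15.5 and 22.3 CPM in sham livers (1.14 ± 0.33, adjusted p = 0.0233). SG 5, SG 1, SG 3 and SG 2 lay above all sham libraries, and SG 4 and SG 7 within their range. Folr2, a folate receptor of resident macrophages, had 5.73, 11.2 and 18.3 CPM in SG livers and 3.36, 6.04 and 7.92 CPM in sham livers (0.98 ± 0.31, adjusted p = 0.0387).

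Of 11 markers of monocytes and recruited macrophages 2 rose and none fell (median 1.09), which is 18.2% called against 8.52% of all genes. Ccr2, the receptor that brings monocytes into tissue, had 1.62, 4.31 and 11.3 CPM in SG livers, against 1.44, 2.48 and 2.91 CPM in sham livers (1.33 ± 0.41, adjusted p = 0.0343). Chil3, a chitinase-like protein of myeloid cells, had 0.486, 0.85 and 20.6 CPM in SG livers and 0.108, 0.46 and 0.894 CPM in sham livers (3.59 ± 0.93, adjusted p = 0.0122). Lipid-associated macrophages, which take up fat in diseased liver, had 2 of 14 markers called (14.3%), both higher (median 0.65). These were the chemokine Ccl3 (2.54 ± 0.66, adjusted p = 0.0127), highest in SG 3 at 3.53 CPM, and lipoprotein lipase, Lpl, with 25.4, 38.6 and 60 CPM in SG livers and 14.5, 18.4 and 28.4 CPM in sham livers (1.08 ± 0.32, adjusted p = 0.0293). These few calls hung on single libraries. No Kupffer cell marker was called without SG 1, SG 3, SG 5 or sham 6 alone, or without sham 1 and sham 2 together. No monocyte marker was called without SG 5 alone or in limma-voom, and no lipid-associated marker without SG 3 alone. In the fit that left out SG 3 and SG 5 none of the markers on these 3 macrophage lists was called, and the medians were 0.31 for Kupffer cells, 0.39 for monocytes and 0.51 for lipid-associated macrophages.

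Of 21 T and NK cell markers 1 was called, the granule protease Gzmb, at 0.459, 0.665 and 0.962 CPM in SG livers and 0, 0.181 and 0.509 CPM in sham livers (1.64 ± 0.45, adjusted p = 0.0181). Of the 6 SG libraries 5 lay above every sham library and SG 2 within their range, and the call held without SG 3 and SG 5 (1.65, adjusted p = 0.0433) but not without sham 1 and sham 2 (1.41, adjusted p = 0.0583). The list's median was 0.38, and the share called was 4.76%, under the 8.52% of all genes. None of the markers of B cells, hepatocytes, bile duct cells, stellate cells or sinusoidal endothelium was called, at medians of -0.23, 0.02, 0.50, 0.07 and 0.04.

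**Figure D3:**
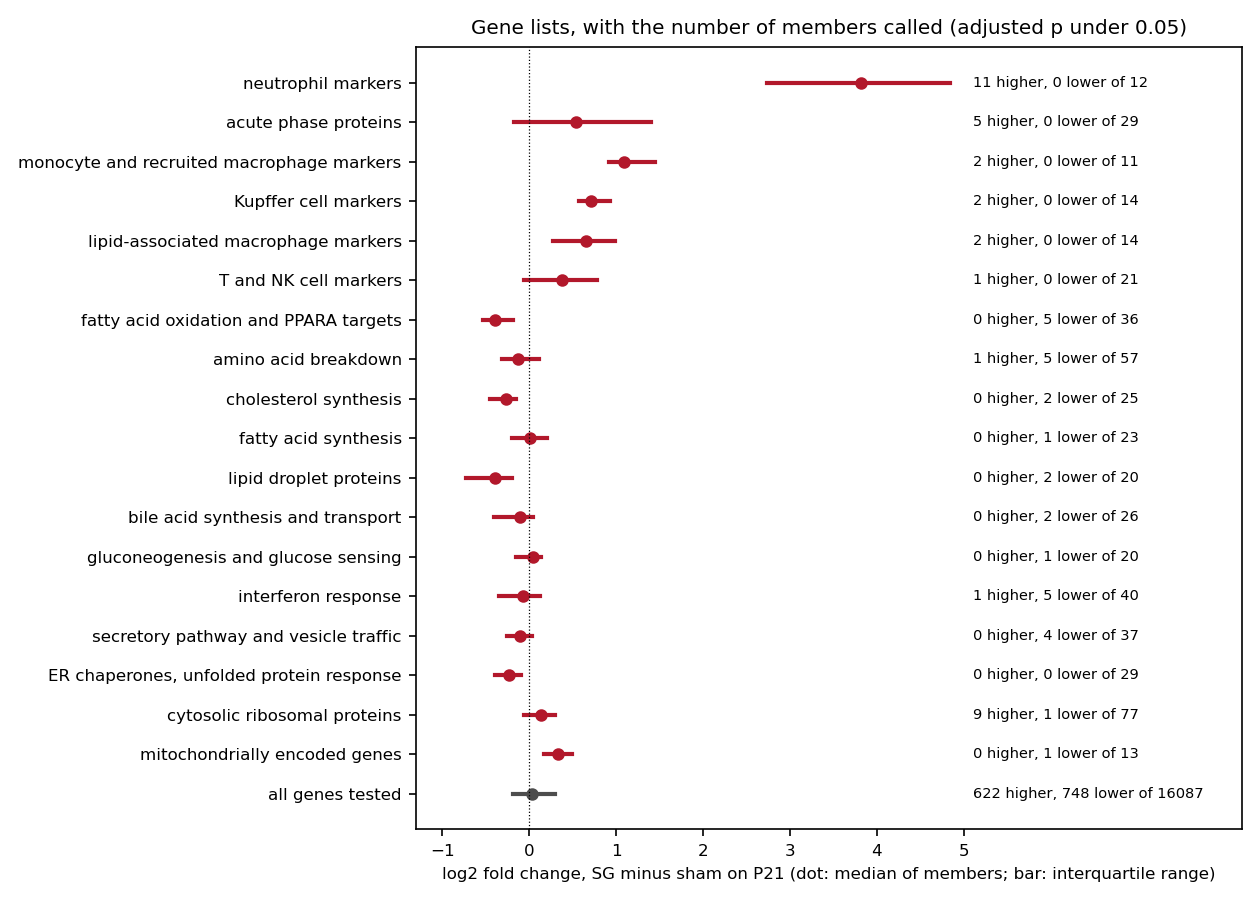
Median (dot) and interquartile range (bar) of the log2 fold changes, SG minus sham on P21, over the members of 18 gene lists in red and over all genes tested in grey, with the number of members called in each direction on the right. The neutrophil list stands furthest from 0 with a median of 3.82, and the lists of fatty acid oxidation and of lipid droplet proteins have the lowest medians, both at -0.39.

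The genes that fell had the lowest p-values of the comparison. All 10 called genes with the lowest adjusted p (Szrd1, Parp10, Ogfr, Rnf44, Slc12a4, Afg3l1, Slc20a2, Nol6, Eif4h and Poll) were lower in SG livers, with log2 fold changes of -0.82 to -0.49, and in all 10 the groups did not overlap. Szrd1 had 45, 50.6 and 59.5 CPM in SG livers, against 73.4, 83.8 and 96.9 CPM in sham livers (-0.76 ± 0.11, adjusted p = 0.000312). Parp10, an enzyme that adds single ADP-ribose units to proteins, had 15.7, 17.3 and 24.6 CPM in SG livers and 27.2, 31.1 and 36.7 CPM in sham livers (-0.78 ± 0.13, adjusted p = 0.000526). Ogfr, the opioid growth factor receptor, had 20.6, 23.2 and 33.2 CPM in SG livers and 35.4, 39 and 46.9 CPM in sham livers (-0.72 ± 0.12, adjusted p = 0.000762). SG 5 was the SG library closest to sham for all 3.

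The rest of the 10 serve several basic functions of the cell. Eif4h, which helps unwind mRNA at the start of translation, had 82.5, 92.5 and 111 CPM in SG livers, against 118, 132 and 156 CPM in sham livers (-0.49 ± 0.09, adjusted p = 0.00104). Nol6, a nucleolar protein of ribosome assembly, had 16.3, 19.1 and 21.6 CPM in SG livers and 25.4, 35.3 and 39.8 CPM in sham livers (-0.82 ± 0.14, adjusted p = 0.00104). The phosphate carrier Slc20a2 fell by 0.65 on the log2 scale, the potassium chloride carrier Slc12a4 fell by 0.73, the mitochondrial protease gene Afg3l1 fell by 0.65, the DNA repair polymerase Poll fell by 0.71 and Rnf44 fell by 0.59, at adjusted p from 0.000821 to 0.00116. All 10 stayed called in each of the 21 alternative fits, though none reaches a log2 change of 1, the fold threshold tried beside them.

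Among the 10 largest falls several were metabolic enzymes. Csad, which makes the taurine that is joined to bile acids, had 67.8, 93.2 and 265 CPM in SG livers, against 163, 338 and 416 CPM in sham livers (-1.39 ± 0.28, adjusted p = 0.00272). SG 2, at 265 CPM, lay within the sham range, and the other 5 SG libraries lay below it. Cad, the enzyme of the first steps of pyrimidine synthesis, had 6.97, 9.52 and 11.2 CPM in SG livers and 15.3, 19.6 and 27.6 CPM in sham livers (-1.15 ± 0.24, adjusted p = 0.00312). Urad, which acts after urate oxidase in urate breakdown, had 3.13, 3.83 and 4.8 CPM in SG livers and 7.28, 10.1 and 10.9 CPM in sham livers (-1.31 ± 0.32, adjusted p = 0.00922). The groups did not overlap for Cad or for Urad.

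Tymp, or thymidine phosphorylase, fell by 1.29 on the log2 scale (adjusted p = 0.0122), with 1 sham library, sham 7, low at 4.09 CPM. Lamb3, a chain of the basement membrane protein laminin 332, had 3.72, 4.63 and 6.47 CPM in SG livers, against 9.37, 14.2 and 23.1 CPM in sham livers (-1.58 ± 0.33, adjusted p = 0.00312). Tnfrsf14, a receptor through which lymphocytes are held in check, had 1.27, 1.55 and 2.22 CPM in SG livers and 3.04, 4.28 and 4.9 CPM in sham livers (-1.31 ± 0.30, adjusted p = 0.00513). The groups did not overlap for Lamb3 or Tnfrsf14, nor for Cmip, at -1.20 ± 0.27 (adjusted p = 0.00468). Cyb5d1 was at -1.40 ± 0.40 (adjusted p = 0.0205), with sham 7 inside the SG range. Its call was lost without sham 1 and sham 2 (adjusted p = 0.0575). The 2 remaining names of the 10 were Rn7s1 and Rn7s2, near-identical copies of the signal recognition particle RNA whose reads cannot be told apart, both at -1.67. The Rn7s1 call was lost without SG 3 and SG 5 (adjusted p = 0.0528).

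The genes that fell and those that rose differed in base composition. The median GC content of the longest annotated transcript was 55.09% over called genes that fell, 46.57% over those that rose and 49.38% over all genes tested with a value. In the decile of genes with the lowest GC content 0.382% were called lower and 5.41% higher, while in the decile with the highest GC content 11% were called lower and 1.15% higher. The median log2 fold change ran in step from 0.11 in the lowest decile to -0.12 in the highest. For each library Spearman's rho over 11280 genes between GC content and its deviation in log2 CPM from the mean of all libraries was -0.53 to -0.054 in SG livers, with a median of -0.389, and -0.253 to 0.045 in sham livers, with a median of -0.157. SG 5 was the SG library nearest to 0.

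When each library's trend with GC content was taken out, the calls numbered 584 higher and 800 lower, and 438 of the rises and 559 of the falls were shared with those given above. This correction was chosen after seeing the data. The median GC content of called genes was then 50.78% for rises and 51.92% for falls. In that fit Szrd1 was at -0.68, Parp10 at -0.64 and Ogfr at -0.54, and all 3 remained called. Of the 57 named genes that fell, 8 were no longer called, and of the 38 named genes that rose, 5 were not.

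**Figure D4:**
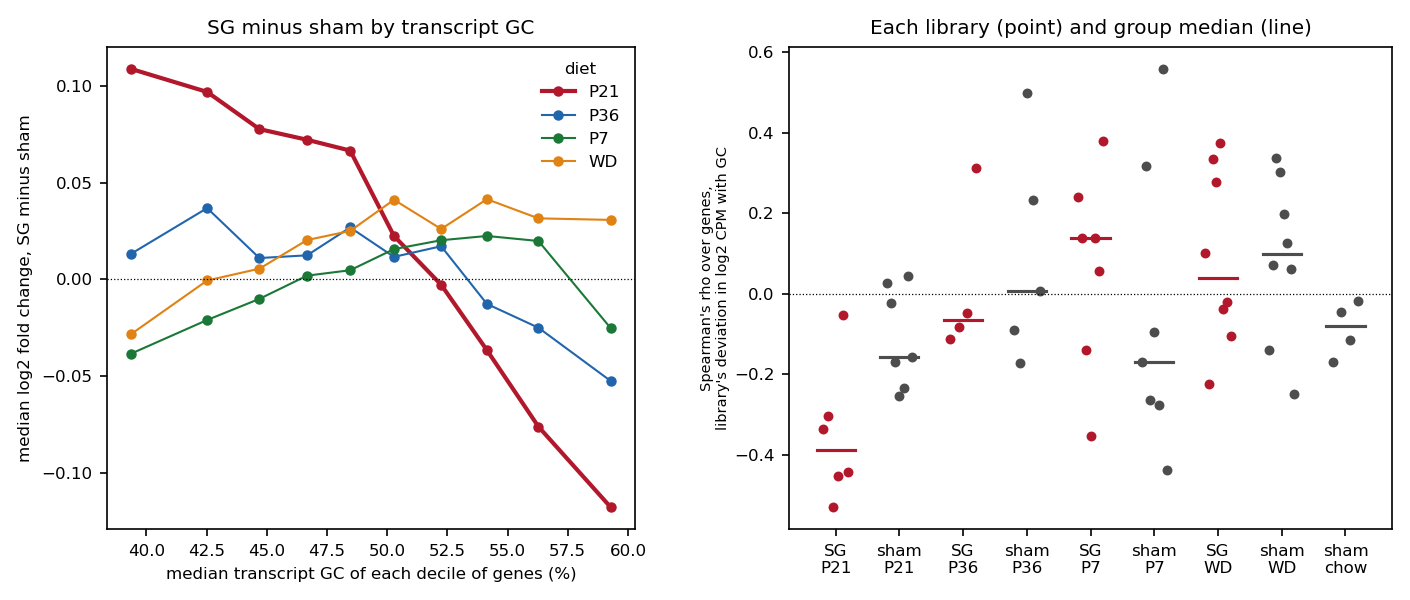
Left, median log2 fold change, SG minus sham, over deciles of genes ordered by the GC content of their longest transcript (x axis, median GC of each decile in percent), for P21 in red and the other diets in thinner lines. Right, for each library (point) of the 9 groups fitted, Spearman's rho over genes between GC content and the library's deviation in log2 CPM, with group medians as lines; the P21 line on the left falls from 0.11 to -0.12, and 5 of the 6 SG P21 points on the right lie below every sham P21 point.

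Genes of fat burning fell in part. Of 36 genes of fatty acid oxidation and PPARA targets 5 fell and none rose, the median log2 fold change was -0.39 and 30 of the 36 were negative. The share called was 13.9%, against 8.52% of all genes tested, and 7439 of all 16087 genes were negative. Hadha, which carries the last steps of long-chain fatty acid oxidation in mitochondria, had 276, 306 and 335 CPM in SG livers, against 454, 478 and 591 CPM in sham livers (-0.73 ± 0.17, adjusted p = 0.00617). Acads, the first enzyme for short-chain fatty acids, had 66.3, 82.1 and 100.3 CPM in SG livers and 115, 134 and 178 CPM in sham livers (-0.74 ± 0.14, adjusted p = 0.00165). For both, all SG libraries lay below all sham libraries.

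Creb3l3, a liver transcription factor of the fasting response, had 146, 193 and 209.7 CPM in SG livers and 217, 261 and 308 CPM in sham livers (-0.48 ± 0.15, adjusted p = 0.0302). Crat, which moves acetyl groups onto carnitine, was at -0.66 ± 0.22, adjusted p = 0.0456, and its call was lost in 11 of the 21 alternative fits. The list held 3 calls without SG 3 alone, 2 without SG 3 and SG 5, with a median of -0.36, and 7 without sham 1 and sham 2, with a median of -0.49. Neither the gatekeeper enzyme Cpt1a, at -0.46 ± 0.18 (adjusted p = 0.0984), nor the receptor Ppara itself, at -0.81 ± 0.35 (adjusted p = 0.134), passed. With the GC trend taken out Creb3l3 and Crat missed the threshold, at adjusted p = 0.0506 and 0.068. Creb3l3 missed it as well without SG 3 alone and without SG 3 and SG 5 together.

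In lipid storage 2 of 20 lipid droplet genes fell and none rose, with a median of -0.39, which is 10% called against 8.52% of all genes. Fitm2, which helps droplets bud from the endoplasmic reticulum, had 26.6, 31.3 and 39 CPM in SG livers, against 42.1, 60.6 and 78.9 CPM in sham livers (-0.89 ± 0.21, adjusted p = 0.00807). Lipe, or hormone-sensitive lipase, had 7.29, 8.5 and 10.7 CPM in SG livers and 11.6, 14.6 and 18.5 CPM in sham livers (-0.72 ± 0.20, adjusted p = 0.0198). The groups did not overlap for either gene, but the Lipe call was lost without sham 1 and sham 2 (adjusted p = 0.0596). Cidec, a droplet protein that marks fatty liver, averaged lower but did not pass (-1.10 ± 0.51, adjusted p = 0.169).

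Of 25 cholesterol synthesis genes 2 fell, none rose, and 22 were negative (median -0.26), which is 8% of the list called against 8.52% of all genes and so near the background. Srebf2, which encodes the factor that turns on this pathway, had 36.5, 48.4 and 53.9 CPM in SG livers, against 63.5, 76.6 and 91.5 CPM in sham livers (-0.73 ± 0.20, adjusted p = 0.016). Of 26 genes of bile acid synthesis and transport 2 fell, Hsd3b7 (-0.41 ± 0.14, adjusted p = 0.0493) and the phospholipid pump Abcb4 (-0.53 ± 0.17, adjusted p = 0.0411), but neither was called without SG 1, SG 4 or SG 7 alone, without SG 3 and SG 5, with no filter or in limma-voom. Of 23 fatty acid synthesis genes 1 fell, Dgat2, the enzyme of the last step of triglyceride synthesis, with 216, 310.5 and 374 CPM in SG livers and 351, 479.9 and 539 CPM in sham livers (-0.59 ± 0.14, adjusted p = 0.00836), and the median was 0.01. Of 20 genes of glucose production and sensing 1 fell, Pcx, or pyruvate carboxylase, the entry enzyme of gluconeogenesis, with 306, 354 and 396 CPM in SG livers and 483, 613 and 664 CPM in sham livers (-0.75 ± 0.16, adjusted p = 0.00323). Called were 7.69% of the bile acid list, 4.35% of the fatty acid synthesis list and 5% of the glucose list, all under 8.52%.

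The called genes of amino acid breakdown included 3 that act at the step shared by the branched-chain amino acids. The branched-chain ketoacid dehydrogenase is built from the subunits encoded by Bckdha and Bckdhb, and the kinase encoded by Bckdk switches it off. Bckdha had 59.8, 104 and 120.1 CPM in SG livers, against 140.1, 159 and 180.2 CPM in sham livers (-0.68 ± 0.19, adjusted p = 0.0205). Bckdk had 10.4, 11.8 and 12.9 CPM in SG livers and 14.4, 16.2 and 20.6 CPM in sham livers (-0.52 ± 0.10, adjusted p = 0.00165). Bckdhb had 66.6, 72.8 and 75.9 CPM in SG livers and 46.1, 50.9 and 60.6 CPM in sham livers (0.45 ± 0.11, adjusted p = 0.00668). Thus Bckdha and Bckdk fell, Bckdhb rose, and in none of the 3 did the groups overlap. Dbt, which encodes a further subunit, was at -0.19 ± 0.14, adjusted p = 0.431. The 3 were picked out because they were called, and branched-chain genes were not counted as a list of their own.

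Over the whole list of 57 amino acid breakdown genes 1 rose and 5 fell, and the median was -0.13. The share called was 10.5%, against 8.52% of all genes, and so near the background. The other falls were Csad, given above, Aldh4a1, which completes proline breakdown (-0.57 ± 0.14, adjusted p = 0.00825), and Sardh, which breaks down sarcosine (-0.61 ± 0.20, adjusted p = 0.0452). The Sardh call was lost in 14 of the 21 alternative fits. Without sham 3 alone 8 of the list fell. With SG 3 and SG 5 left out there were 3 calls, all lower, and Bckdha and Bckdhb missed the threshold at -0.69 and 0.38. With the GC trend taken out Aldh4a1 and Sardh missed it, at adjusted p = 0.0554 and 0.0988. None of 10 urea cycle genes was called (median -0.09). Of 37 ATF4 targets, the genes induced when amino acids run short, 1 fell, the tryptophan tRNA synthetase Wars1 (-0.48 ± 0.12, adjusted p = 0.00823), and asparagine synthetase, Asns, was at 1.28 ± 0.58, adjusted p = 0.16. The share of ATF4 targets called was 2.7%, under the 8.52% of all genes.

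Of 40 genes that interferon induces 5 fell and 1 rose, and the median was -0.07. The share called was 15%, against 8.52% of all genes. Isg15, a ubiquitin-like protein, had 9.33, 14.8 and 17.6 CPM in SG livers, against 21.5, 26.1 and 34.5 CPM in sham livers (-0.88 ± 0.23, adjusted p = 0.013). The groups did not overlap for Isg15 or for Irf7, a factor that amplifies the response (-0.64 ± 0.20, adjusted p = 0.0389). Usp18, which removes Isg15 from proteins, and the RNA sensor Dhx58 fell by 0.78 and 0.67 on the log2 scale. Oas2, an enzyme that activates RNA cleavage, went the other way, with 5.18, 8.96 and 14.6 CPM in SG livers and 2.53, 4.08 and 5.82 CPM in sham livers (1.26 ± 0.31, adjusted p = 0.00935). Leaving out SG 1 alone left 2 of the falls and SG 4 alone 3, and Irf7 missed the threshold in 9 of the 21 alternative fits. Without SG 3 and SG 5 there were 3 calls, all lower, and Oas2 was at 1.02 (adjusted p = 0.0652).

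Of 37 genes of the secretory pathway 4 fell and none rose (median -0.11), which is 10.8% called against 8.52% of all genes and so near the background. Sec23b and Sec24d, subunits of the COPII coat that carries cargo out of the endoplasmic reticulum, were at -0.68 ± 0.20 (adjusted p = 0.0301) and -0.76 ± 0.22 (adjusted p = 0.0257). Sec61a1, the channel for nascent secreted proteins, had 136, 164 and 193 CPM in SG livers, against 176, 232 and 312 CPM in sham livers (-0.61 ± 0.18, adjusted p = 0.03), and the cargo lectin Lman2 was at -0.47 ± 0.15, adjusted p = 0.0392. Sham 1 and sham 2 held the highest summed levels of this list, 6034 and 6241 CPM, against 4175 to 5345 CPM in the other sham livers and 4580 to 5099 CPM in SG livers. None of the 37 was called without sham 1 and sham 2 or without SG 7 alone, 1 was without SG 4, sham 1 or sham 2 alone, and 6 were without sham 6. None of 29 chaperones and unfolded protein response genes was called (median -0.24, or 0.03 without sham 1 and sham 2).

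Of 77 cytosolic ribosomal protein genes 9 rose and 1 fell, and the median was 0.13. The share called was 13%, against 8.52% of all genes. Rpl27a had 196, 207 and 244 CPM in SG livers, against 88.8, 136 and 173 CPM in sham livers (0.69 ± 0.21, adjusted p = 0.0337), and the SG values lay wholly above. Rpl12 had 170.0, 183 and 195 CPM in SG livers and 92.3, 126 and 154 CPM in sham livers (0.54 ± 0.16, adjusted p = 0.0259), with the same order. Rplp0, a protein of the ribosomal stalk, fell (-0.39 ± 0.11, adjusted p = 0.0214). Many of these genes have processed copies elsewhere in the genome, and without SG 3 and SG 5 the list held 2 calls, 1 in each direction. Leaving out 1 library at a time gave 0 to 11 rises, with 0 without sham 4, 5 or 6 and 11 without sham 7. In the fits without sham 4, 5 or 6 the median over all genes was negative too.

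RNA encoded in mitochondria took 9.85 ± 2.54% of counts in SG livers (SD, n = 6) and 8.16 ± 1.75% in sham livers (SD, n = 7). The difference of 1.69 percentage points between the group means did not pass the threshold (exact permutation test, two-sided, p = 0.184 over 1716 splits), which does not show that the groups were alike. Of the 13 mitochondrially encoded genes 1 was called, mt-Nd4l, which fell (-0.80 ± 0.25, adjusted p = 0.0376), though the median of the 13 was 0.33. The share called was 7.69%, against 8.52% of all genes, and so near the background. That call was lost in 10 of the 21 alternative fits, among them those without SG 1, SG 2, SG 3, SG 5, sham 1 or sham 5 alone. It was lost too without SG 3 and SG 5 (-0.62, adjusted p = 0.186) and without sham 1 and sham 2 (-0.83, adjusted p = 0.0518), fits in which 1 and 3 other members of the 13 were called higher, at medians of 0.49 and 0.65.

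Of 34 metabolic genes examined whatever their values, none was called, against 8.52% of all genes tested. The growth factor Igf1 had 524, 656 and 710.1 CPM in SG livers, against 402, 511 and 578 CPM in sham livers (0.34 ± 0.15, adjusted p = 0.15). The bile acid enzymes Cyp7a1 and Cyp8b1 were at -0.42 ± 0.41 (adjusted p = 0.566) and -0.78 ± 0.43 (adjusted p = 0.259). Fgf21, a hormone the liver makes when protein is scarce, was at -0.64 ± 0.61 (adjusted p = 0.551), the desaturase Scd1 at -0.47 ± 0.34 (adjusted p = 0.409) and the gluconeogenic enzyme Pck1 at -0.07 ± 0.33 (adjusted p = 0.93). A p above the threshold does not show that these genes were alike in both groups.

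The same test called fewer genes on every other diet: 357 (2.22%) on P36, 376 (2.34%) on WD and 0 (0%) on P7, where 681 had an unadjusted p under 0.05. These groups share no library with those on P21, but they differ in size and depth. Across the 16087 genes the log2 fold changes on P21 correlated with those on WD at Pearson's r = 0.382 and Spearman's rho = 0.306, with those on P36 at 0.28 and 0.257, and with those on P7 at 0.215 and -0.007, as a description over genes, which are not independent replicates. With WD 63 genes were called the same way, all higher, which is 4.6% of the P21 calls and 16.8% of the WD calls. With P36 17 were called higher and 13 lower on both diets, 2.2% of the P21 calls and 8.4% of the P36 calls.

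S100a9 rose on WD too. It had a log2 fold change of 6.06 ± 0.98 on WD (adjusted p = 0.000119), 2.65 ± 1.12 on P36 (adjusted p = 0.245) and 2.40 ± 0.95 on P7 (adjusted p = 1), and the F test of a difference of the surgery contrast among the 4 diets gave an adjusted p of 0.231. The summed neutrophil level had a median of 41.49 CPM in SG livers on P21 and 8.004 CPM in sham livers, against 39.52 and 8.45 CPM on P36, 20.86 and 12.11 CPM on P7 and 89.15 and 12.91 CPM on WD. In SG livers it reached 166.8 CPM on P36, 106.4 CPM on P7 and 2347 CPM on WD, so SG livers far above the median of their group were found on each diet. Sham livers reached 41.16 CPM on P36, 15.58 CPM on P7 and 64.03 CPM on WD. Livers far above their group's median were thus found among sham livers as well, on P36 and WD.

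A difference in the surgery contrast between P21 and another diet was called for 209 genes (1.3%) against P7, 37 (0.23%) against P36 and 20 (0.124%) against WD, and the F test over the 4 diets called 140 (0.87%). These counts moved both ways with single libraries. Without SG 5 they were 574 against P7, 70 against P36, 144 against WD and 320 in the F test, while the lowest were 76 against P7 without SG 7, 1 against P36 without SG 2 or sham 6, 0 against WD without SG 2, SG 4 or SG 7, and 47 in the F test without SG 4. Of the 209 against P7, 166 were lower on P21 relative to P7 and 43 higher. Szrd1 was at -0.76 ± 0.11 on P21, against -0.04 ± 0.14 on P36, 0.14 ± 0.11 on P7 and -0.03 ± 0.10 on WD, and the F test gave an adjusted p of 0.00802. Parp10 was at -0.78 ± 0.13 on P21, against -0.13 ± 0.15 on P36, 0.08 ± 0.12 on P7 and 0.09 ± 0.11 on WD (adjusted p = 0.0152). Both were named for a low p on P21, which enters the F test. Both are GC-rich (55.18% and 57.88%), and the trend of the surgery difference with GC content given above was steepest on P21. With each library's trend taken out, 152 genes were called against P7, 57 against P36, 35 against WD and 145 in the F test. Diet differences of single genes were not examined in that fit.

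Furin, the protease that cuts many secreted precursors, had 89, 115 and 119.5 CPM in SG livers on P21, against 158, 194 and 218 CPM in sham livers (-0.80 ± 0.14, adjusted p = 0.00116). Its contrast on P21 less that on P7 was -1.05 ± 0.20 (adjusted p = 0.00925). Lrp5, a co-receptor for Wnt proteins, had 24.1, 25.6 and 31.2 CPM in SG livers on P21, against 38.4, 56.5 and 76.1 CPM in sham livers (-1.09 ± 0.20, adjusted p = 0.00116). Its contrast on P21 less that on P36 was -1.44 ± 0.30 (adjusted p = 0.0356). Both genes were without overlap between the P21 groups.

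Nlrx1, a regulator of innate immunity on mitochondria, Gna12, a G protein subunit, and Bckdk were also among the 5 lowest p-values against P7, at -0.82 ± 0.16, -1.14 ± 0.22 and -0.70 ± 0.13. Zfp948 rose on P21 and differed there from both P7 and WD, at 0.59 ± 0.15 on P21, -0.21 ± 0.14 on P7 and -0.37 ± 0.13 on WD (F test, adjusted p = 0.0308). Other genes changed on the other diet and were not called on P21. The clock output gene Dbp was at -0.05 ± 0.29 on P21 and -2.38 ± 0.38 on P36, Star, which carries cholesterol into mitochondria, at 0.35 ± 0.55 on P21 and 4.38 ± 0.66 on P36, and the VEGF receptor Flt1 at -0.10 ± 0.12 on P21 and 0.81 ± 0.15 on P36. The cholesterol synthesis enzyme Sqle was at -0.40 ± 0.63 on P21 and 4.13 ± 0.67 on WD. The difference of Star on P36 rested on 1 liver. Star reached 122 CPM in 1 of the 4 SG livers on P36, the next being 1.54 CPM, against a highest value of 2.12 CPM in sham livers on P36. Sqle varied widely among SG livers on WD, at 0.512, 4.13 and 126 CPM (lowest, median and highest), against 0.942, 1.99 and 2.93 CPM in sham livers on WD. The SG median lay above the highest of those sham values.

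Csad and Lamb3 fell on P36 as well. Csad was at -1.89 ± 0.35 on P36 (adjusted p = 0.00132) and -0.76 ± 0.25 on WD (adjusted p = 0.0982), and Lamb3 at -1.55 ± 0.40 on P36 (adjusted p = 0.0253) and 0.14 ± 0.28 on WD (adjusted p = 0.882). Isg15 and Usp18 fell on P36 too, at -1.51 ± 0.29 and -1.43 ± 0.28 (adjusted p = 0.00166 and 0.00235).

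**Figure D5:**
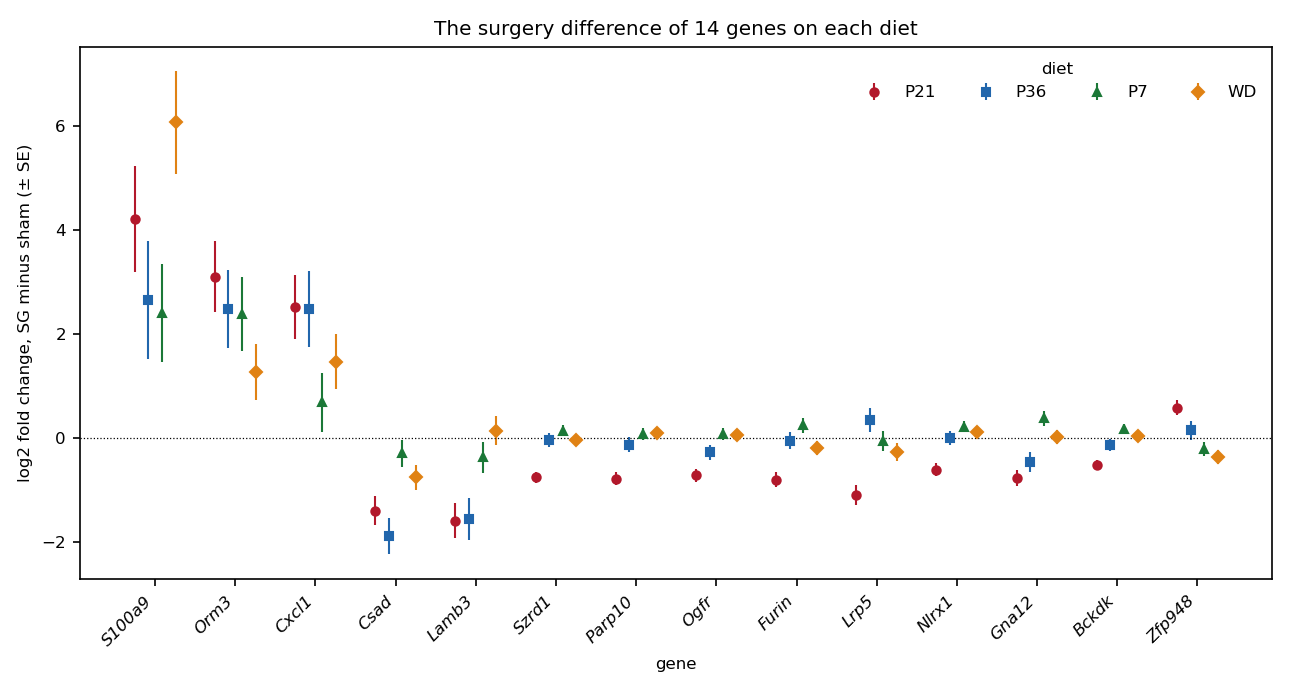
Log2 fold change, SG minus sham, with its standard error, of 14 named genes (x axis) on P21, P36, P7 and WD. S100a9, Orm3 and Cxcl1 lie above 0 on all 4 diets, whereas Szrd1, Parp10, Ogfr, Furin, Lrp5 and Nlrx1 lie furthest below 0 on P21.

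In the authors' deposited table the comparison on P21 holds 260 genes higher and 984 lower in SG livers of 15523 listed, at an adjusted p under 0.05. Of the 1360 genes called here that it lists, 975 were called there in the same direction, and over the genes in both the log2 fold changes correlated at r = 0.915. Most neutrophil calls made here were not made there. Csf3r passed at the authors' adjusted p of 0.0351, while S100a8, S100a9, Ngp, Ltf, Cxcr2, Retnlg, Mmp8, Ly6g, Camp and Il1b had 0.118 to 0.414. Cxcl1 (0.0882), Socs3 (0.161), Il1rn (0.278) and Cd14 (0.385) did not pass there either, and Orm2 (0.038) and Orm3 (0.0439) did.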

How the data were processed

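Polyadenylated RNA of mouse livers was made into stranded libraries and read in pairs of 150 bases, per the labels' protocols. The deposited table gives, per the file headers, RSEM expected counts per gene for 56884 gene IDs. The build was GRCm39, per the submitters' processing notes, which also name R 4.4.1, edgeR and limma. The aligner and the annotation are neither stated there nor otherwise given in the sources used here. A second table deposited by the authors holds their own comparisons as log2 fold changes, p-values and an F score, and from it the log2 fold changes and adjusted p-values were set beside those computed here.

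Here the expected counts were rounded, and R 4.3.3 and edgeR 4.0.16 were used for the tests. The function filterByExpr, given the groups, left 16087 genes, and TMM factors scaled the libraries. One quasi-likelihood model covered the 56 libraries of the 9 groups that hold more than 1 (47 residual degrees of freedom, biological coefficient of variation 28.2%), and the comparison was its contrast of SG minus sham on P21. Differences between diets were differences of such contrasts, with an F test over the 4 diets. All p-values are two-sided, corrected over every gene tested by the Benjamini-Hochberg method, and judged at 0.05. CPM rest on TMM library sizes, and log2 CPM add a prior count of 2. The number of mice limits precision, as does counting error, most of all in SG 4 with 6.99 M counts. All 36 pairs of libraries within a P21 group differed by more than sampling noise (the smallest chi-square was 16.35 per degree of freedom), so none was taken for a library deposited more than once.

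GC content is that of the longest GENCODE transcript on GRCm38, known for 97.6% of the genes tested. Of the gene symbols 15523 are from the authors' table and 36760 from GENCODE, and promoters are from RefSeq. The groups compared, the 52 gene lists and the rule for named genes were chosen with earlier results of these data known. Named by that rule are the 10 highest and the 10 lowest log2 fold changes, taken from called genes whose mean log2 CPM was 1 or more, the 10 lowest adjusted p, up to 4 members of each list, 34 metabolic genes and 5 genes for each difference between diets, leaving out predicted genes and pseudogenes. Other called members of a list are named to complete its count, except that some genes counted in the lists are not reported here by name, and genes outside all of these are marked as picked out after their values were seen.

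The settings varied were the scaling (RLE), the filter (none beyond 1 count), the tool (DESeq2 1.42.0 and voom in limma 3.58.1), the groups fitted (P21 alone), a fold threshold and the libraries, each left out in turn. An offset per library for GC content (a spline with 5 degrees of freedom) and fits without SG 3 and SG 5 or without sham 1 and sham 2 were added after seeing the data. The steps were tested on simulated counts.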

Additional observations from a re-analysis of the deposited data

Results flagged for a closer look

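In 13 of 236 groups of values examined, 1 library of a gene lay far from the others of its group, where chance gives about 1 in 20. The figure that follows is its gap to the nearest library divided by the range of the group in log2 CPM. Sham 3 was far above the other sham livers for S100a8 (0.585), S100a9 (0.578), Ngp (0.79), Ly6g (1) and Camp (1), and sham 5 for Irf7 (0.761). Sham 7 was far below for Tymp (0.639), sham 4 for Rplp0 (0.568) and sham 3 for Sqle (0.639). Among SG livers SG 5 was far above for Ogfr (0.684), SG 3 far below for Creb3l3 (0.706) and Ndufv1 (0.694), and SG 7 far below for Wars1 (0.644). With sham 3 or without it the neutrophil genes kept the direction given in the report.

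The difference between SG and sham livers differed among WD, P36, P21 and P7 by edgeR's F test for 25 of the named genes. Over all 16087 genes it did so for 140 (0.87%). Some of the 25 were named for a low p in a difference between diets or on P21. Those values enter the F test, so the 25 are no independent support for a dependence on diet. The adjusted p was 0.00802 for Szrd1, 0.0152 for Parp10, 0.0181 for Ogfr, 0.0172 for Eif4h, 0.0223 for Poll, 0.0319 for Slc20a2, 0.035 for Afg3l1, 0.0423 for Nol6 and 0.0481 for Rnf44. It was 0.0166 for Nlrx1, 0.0172 for Gna12, 0.0195 for Bckdk, 0.0223 for Furin, 0.0308 for Lrp5, 0.0308 for Lipe, 0.0376 for Crat, 0.0382 for Isg15 and 0.0453 for Lamb3, all of which fell on P21. It was 0.0308 for Zfp948, which rose on P21, and 0.0223 for D17H6S53E, which was at -0.32 ± 0.09, adjusted p = 0.0175 on P21 and 0.30 ± 0.08 on WD. For Dbp (0.00301), Flt1 (0.00321), Star (0.012), Sqle (0.0166) and Nutf2 (0.026) no change was called on P21.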

How the results depend on the processing

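Against 1370 calls on P21, there were 868 with no filter beyond 1 count, 2354 with the P21 groups fitted alone, 296 at an absolute log2 fold change of at least 1, 817 without SG 3 and SG 5, and 966 to 1438 when each library was left out in turn. Leaving out SG 3 or SG 5 or sham 3, 4, 5 or 6 lowered the rises to 247 to 365 and their share of the calls to 20.2 to 25.4%, as did leaving out SG 3 and SG 5 together (149, 18.2%), against 45.4% with all libraries, and the median over all genes was then -0.05 to -0.04. RLE scaling gave 552 higher and 823 lower, DESeq2 678 and 952 and limma-voom 374 and 593.

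The difference from P36 (37 genes) had 6 calls with no filter, 151 with DESeq2, 18 with limma-voom, 57 with the GC offset, 107 without SG 3 and SG 5, 12 without sham 1 and sham 2, and 1 to 70 leaving out each library. That from P7 (209) had 91 with no filter, 482 with DESeq2, 345 without SG 3 and SG 5, 118 without sham 1 and sham 2, and 76 to 574 leaving out each library. That from WD (20) had 36 with RLE, 3 with no filter, 141 with DESeq2, 9 with limma-voom, 35 with the GC offset, 34 without SG 3 and SG 5, and 0 to 144 leaving out each library. The F test (140) had 70 with no filter, 487 with DESeq2, 38 with limma-voom and 47 to 320 leaving out each library. The highest of these counts came without SG 5 in all 4 cases, and the lowest without SG 2 or sham 6 for P36, SG 7 for P7, SG 2, SG 4 or SG 7 for WD and SG 4 for the F test. The difference in mitochondrial share was 1.09 to 2.28 percentage points leaving out each library, and none of the values passed the test.

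Of 95 named genes called, 38 higher and 57 lower, 1 of the rises and 31 of the falls stayed called in all 21 fits other than the fold threshold of 1. Without SG 3 and SG 5, 34 of the rises and 15 of the falls were lost, without sham 1 and sham 2 12 and 12, and with limma-voom 22 and 4. Without SG 3 and SG 5 Orm2 turned to -0.16, Lcn2 to -1.95, Saa1 to -2.46 (leaving out each library, -1.72 without SG 5 to 1.94 without sham 2) and Pck1 to 0.046. Without sham 1 and sham 2 Hspa5 turned to 0.021. Dbp turned to 0.14 with the GC offset and Pck1 to 0.061 with limma-voom, and leaving out each library they were at -0.21 to 0.052 and -0.21 to 0.063. The cause of these changes was not tested. No paired analysis was possible because the library numbers of the groups name separate mice and are not shared by design. Depth limits the genes under about 1 CPM, Ly6g among them, and 6 against 7 mice limit the precision of all values.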

Other observations

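None of 11 markers of bile duct cells was called on P21. Their summed level was 182.2, 221.3 and 266.4 CPM in SG livers (lowest, median and highest), against 138.6, 153.2 and 165.5 CPM in sham livers, so the groups did not overlap. Most of that level came from Spp1, or osteopontin, and Onecut2. Spp1, a secreted protein of bile ducts and of some macrophages, had 60.3, 94.3 and 132 CPM in SG livers and 34.7, 43.2 and 56.3 CPM in sham livers (1.11 ± 0.41, adjusted p = 0.0734), without overlap. Sox9, a transcription factor of duct cells, averaged 5.52 ± 2.65 CPM in SG livers and 3.59 ± 0.68 CPM in sham livers (SD), and Krt19, the duct keratin, 1.17 ± 0.34 and 1.14 ± 0.44 CPM.

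Single genes of other pathways fell. Cpox, an enzyme of haem synthesis, had 94.4, 116 and 147 CPM in SG livers and 148, 192 and 234 CPM in sham livers (-0.75 ± 0.21, adjusted p = 0.0186). F12, the coagulation factor that starts the contact pathway, had 159.9, 178 and 232 CPM in SG livers and 245, 288 and 371 CPM in sham livers (-0.63 ± 0.18, adjusted p = 0.021). Txnrd1, or thioredoxin reductase, had 89.5, 104 and 128 CPM in SG livers and 129, 142 and 164 CPM in sham livers (-0.40 ± 0.12, adjusted p = 0.0281), and in all 3 the groups did not overlap. The Cpox call was lost without SG 3 and SG 5, and the F12 call without sham 1, alone or together with sham 2. The Txnrd1 call was lost in 4 of the 21 alternative fits. Ndufv1, a subunit of respiratory complex I, was at -0.46 ± 0.12, adjusted p = 0.0161. Its call was lost with the GC trend taken out (-0.34, adjusted p = 0.0796) and without SG 3 and SG 5. Fth1, the ferritin heavy chain, rose, with 1123, 1329 and 1609 CPM in SG livers and 794, 955 and 1016 CPM in sham livers (0.53 ± 0.14, adjusted p = 0.0171). The Fth1 call was lost without sham 4 or sham 5 alone. In the lists of extracellular matrix, proliferation, circadian clock, glycogen metabolism and drug-metabolizing P450s no gene was called, at medians of 0.24, 0.31, 0.08, 0.10 and 0.16 on the log2 scale.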
